A study of Mus musculus with 35 samples.

Results

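The chemokine receptor genes described here are Ccr1, Ccr2, Ccr3, Ccr7, Ccrl2, Cxcr2, Cxcr3, Cxcr4 and Cx3cr1, found by matching the Ensembl identifiers of the count table to these symbols. All 9 had 1 row each among the 53379 genes of the table. They were chosen by name and not by a value.

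Chemokine receptors steer leukocytes along gradients of small secreted chemokines, and most of them signal through Gi proteins that open PI3K and Rac pathways and are switched off by receptor kinases, arrestins and RGS proteins. CXCR2 brings neutrophils out of the marrow and into tissue in answer to CXCL1 and CXCL2, CXCR4 holds myeloid cells at sites rich in CXCL12, and CCR2 releases classical monocytes from the marrow in answer to CCL2. CX3CR1 binds fractalkine and marks patrolling monocytes and many tissue macrophages, CCR1 and CCR3 answer to overlapping CC ligands on neutrophils, monocytes and eosinophils, CCR7 guides dendritic cells to lymph nodes, CXCR3 guides activated T and NK cells, and CCRL2 is an atypical receptor that binds chemerin without driving migration.

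The libraries came from female wild-type C57BL/6 mice that carried T110299 tumors in the pancreas, and every group, controls included, shared this tumor. T110299 is 1 cell line from a genetically engineered mouse model of pancreatic cancer (p53 fl/R172H, Ptf1a-Cre), so the groups model a single tumor line in wild-type hosts. On days 18 and 20 mice received intravenously either 50 µg of poly(I:C), a double-stranded RNA mimic that RIG-I-like receptors sense, complexed with in vivo-jetPEI (poly(I:C)c), or, per the treatment protocol in the labels, glucose as control. The labels' treatment field and the study's results call the control mice untreated, the name used here. Polymorphonuclear myeloid-derived suppressor cells (PMN-MDSC, CD11b+ Ly6C low Ly6G+) and monocytic ones (M-MDSC, CD11b+ Ly6C high Ly6G-) were sorted from spleen and tumor the day after the second injection, and untreated bulk tumor was, per the labels, lysed directly.

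The libraries fell into 9 groups, with 3 libraries of treated splenic PMN-MDSC, 3 of treated tumor M-MDSC and 4 of each other group. The 30 MDSC libraries held 793070 to 4357105 counts (median 2459368) and the bulk libraries 3771590 to 8886115. A further library of 10 counts, treated tumor M-MDSC, was left out, and libraries are numbered within a group by their order in the table, which carries no mouse number. Levels are CPM, counts scaled to a common library total with TMM factors, and a floor of 3 counts (counting error only) was worth at most 3.78 CPM before those factors. The study counts the members of a group as mice, and p-values measure the spread between these libraries. The sample titles share replicate numbers across spleen, tumor, both subsets and bulk tumor, so these groups may hold cells of the same mice, and the tests between them treat the libraries as independent.

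Before the receptors, the sorted groups were checked against the markers of their gates. Ly6g lay at 36.7 to 97 CPM in untreated splenic PMN-MDSC and at 0 to 9.19 CPM in untreated tumor PMN-MDSC, which overlaps the 0.406 to 3.61 CPM of untreated splenic M-MDSC. The summed level of 12 neutrophil markers was 27043 to 53126 CPM in untreated splenic and 1379 to 5434 CPM in untreated tumor PMN-MDSC. The summed level of 12 macrophage markers (Adgre1, C1qa, Mrc1 and others) was 640 to 1924 CPM in the former and 9764 to 13730 CPM in the latter, above the 3574 to 8470 CPM of untreated tumor M-MDSC. Tumor PMN-MDSC are therefore named here by their sort gate and not by their RNA. Among treated tumor M-MDSC, library 2 stood apart with 2.86 CPM of Ly6c2 against 602 and 418 CPM in libraries 1 and 3, and with a macrophage marker sum of 28499 CPM against 5251 and 10978 CPM. For receptors that passed the filter on low counts, the main log2 fold changes that include this library are given with and without it. Receptor shares, marker list values, fits without a filter and the values of ligands and signalling genes include it. Fewer cells of a type and less RNA per cell cannot be told apart in such libraries.

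Of the receptor genes 5 lie on mouse chromosome 9, and Ccr1, Ccr3 and Ccr2 sit close together there. In GRCm38 coordinates Ccr1 occupies chr9:123962124-123968692 (minus strand), Ccr3 chr9:124021972-124031689 (plus strand) and Ccr2 chr9:124101950-124113557 (plus strand). Ccrl2 (chr9:111054486-111057519) and Cx3cr1 (chr9:119901616-120069879), both on the minus strand, lie elsewhere on the same chromosome. Cxcr2 (chr1:74153989-74161246, plus strand) and Cxcr4 (chr1:128588199-128592293, minus strand) are on chromosome 1, Ccr7 is at chr11:99144196-99155077 and Cxcr3 at chrX:101731535-101734269, both on the minus strand. All 9 are protein-coding, and featureCounts assigned reads to their exons by strand, so that the single antisense gene over exons of Cx3cr1 (Gm33858, 39 counts in all libraries against 10738 for Cx3cr1) did not share them.

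The promoters of 8 of the 9 genes, from 250 bases before to 50 bases after the RefSeq start, were searched for 2 motifs on both strands as a description of the letters near their starts. These motifs bind the factors of the interferon and NF-kB pathways, which double-stranded RNA sensors are known to switch on. The interferon-stimulated response element occurred in 0 of the 8 promoters and in 3.44% of 32851 mouse promoters. The NF-kB consensus occurred in 3 of the 8 promoters and in 8.46% of all promoters, and the 3 windows are printed with the match in capitals and 15 bases on either side, on the strand of the gene (RefSeq, GRCm38.p6).
Ccrl2 (chr9:111057550-111057589): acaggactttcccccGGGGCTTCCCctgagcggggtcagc
Ccr1 (chr9:123968742-123968781): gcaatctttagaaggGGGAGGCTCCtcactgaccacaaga
Ccr3 (chr9:124021777-124021816): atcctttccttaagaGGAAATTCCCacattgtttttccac
The matches begin 56 bases before the start of Ccrl2, 74 before that of Ccr1 and 179 before that of Ccr3. A match is a run of letters and not a measured binding site.

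The untreated MDSC groups differed in which receptors led, on a length-scaled level that lets receptors be compared with each other (FPKM, CPM per kilobase of exon). In untreated splenic PMN-MDSC Cxcr2 made up 52.3% ± 6.21 (SD, n = 4) of the summed receptor FPKM, followed by Ccr1 with 22.8% ± 3.54 and Cxcr4 with 20.1% ± 4.18. In untreated splenic M-MDSC Ccr2 made up 68.6% ± 4.93, Cx3cr1 15.9% ± 5.43 and Cxcr4 9.01% ± 1.81 (n = 4). The neutrophil and monocyte trafficking receptors thus dominated the gates named after those lineages in spleen. In untreated tumor PMN-MDSC the leading receptor was Ccrl2 with 39.5% ± 2.20, then Cxcr4 with 19.7% ± 3.48 and Ccr1 with 14.7% ± 0.883. In untreated tumor M-MDSC Ccr2 still led with 38.6% ± 5.53, and Ccrl2 followed with 28.3% ± 4.87. In bulk tumor Cx3cr1 led with 45.8% ± 4.49. Treated PMN-MDSC had the same order of mean shares for the 3 leading receptors, with Cxcr2 at 59.5% ± 5.27, Ccr1 at 25.3% ± 1.93 and Cxcr4 at 13.4% ± 7.06 in spleen (n = 3), and Ccrl2 at 34.5% ± 6.01, Cxcr4 at 21% ± 6.20 and Ccr1 at 20.5% ± 1.71 in tumor (n = 4). In treated M-MDSC Cxcr4 had the highest mean share, with 25.4% ± 6.66 in spleen, where Ccr2 followed with 23.1% ± 10.2 (n = 4), and with 33.3% ± 9.14 in tumor, where Ccrl2 followed with 30.3% ± 10.96 (n = 3), and these shares overlapped within their SD. The order in tumor rested on the divergent library 2, since Ccrl2 had a larger share than Cxcr4 in libraries 1 and 3.

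**Figure D1:**
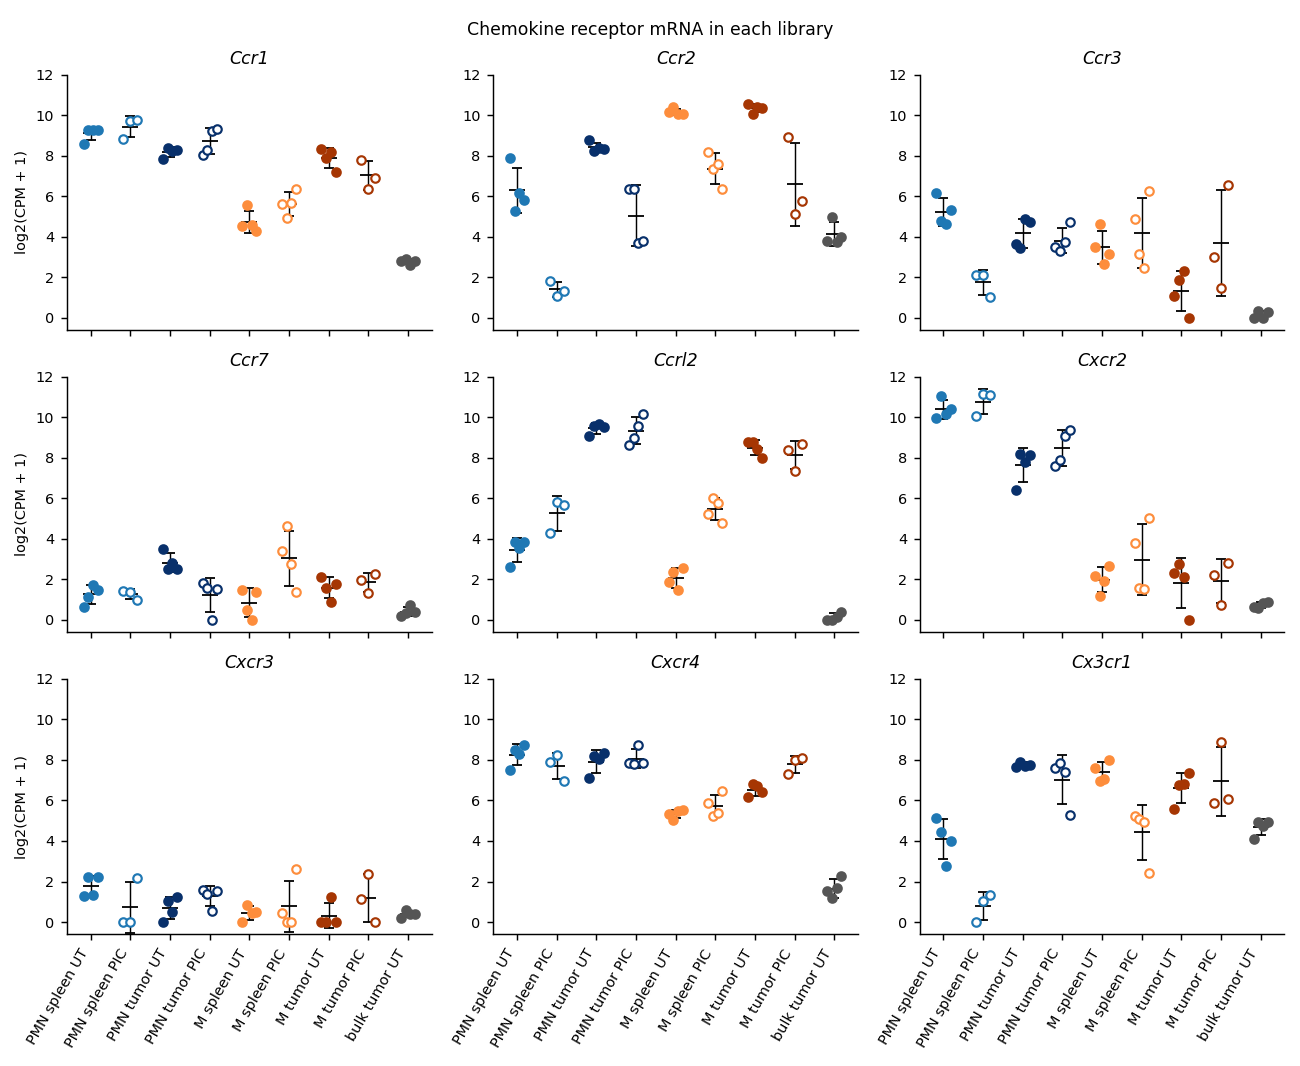
Level of each receptor in each library, as log2(CPM + 1) on the vertical axis, by group on the horizontal axis (UT untreated, PIC poly(I:C)c). Filled points are untreated and open points treated libraries, and bars give mean ± SD over the 3 or 4 libraries. Among the sorted MDSC, Cxcr2 is higher in every PMN-MDSC library than in every M-MDSC library, Ccrl2 is higher in every tumor library than in every splenic one, and Ccr2 is lower in the treated than in the untreated libraries of each population, while bulk tumor holds 0.106 CPM of Ccrl2 on average.

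**Figure D2:**
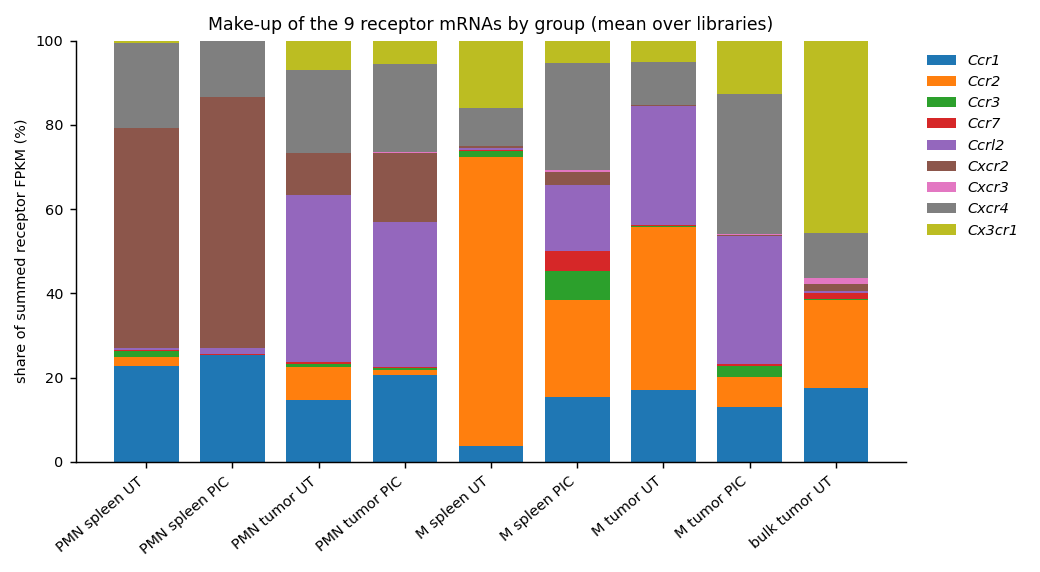
Share of each receptor in the summed FPKM of all 9, in percent, as a mean over the libraries of each group. Cxcr2 fills 52.3% of the untreated splenic PMN-MDSC bar, Ccr2 68.6% of the untreated splenic M-MDSC bar, and Ccrl2 appears as a large segment in all 4 tumor MDSC groups.

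Comparisons used edgeR's quasi-likelihood test over all genes that averaged at least 25 counts in the libraries compared, with Benjamini-Hochberg adjustment over those genes and a call at an adjusted p under 0.05. Log2 fold changes are given with their approximate SE. Ccr7 and Cxcr3 never reached 25 counts on average, so 5 to 7 of the 9 receptors were tested in a comparison. Fits without this filter can give a very different adjusted p at a like log2 fold change. For Ccr1 between subsets in treated tumor it was 0.22 with the filter and 2.56e-07 without. For Ccr2 between compartments in untreated PMN-MDSC it was 0.0064 and 0.0997. Their calls are therefore not on a par with the main ones, and the share of all genes they call is not given here.

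The first comparison asked how the MDSC subsets differ. In untreated spleen 6 of 6 tested receptors differed between PMN-MDSC and M-MDSC (64.4% of all tested genes), 4 of them higher in PMN-MDSC (30.9% of all genes) and 2 lower (33.4%). In treated spleen 6 of 7 differed (61.2%), 3 higher (28.8%) and 3 lower (32.4%). In untreated tumor 5 of 6 differed (13%), 4 higher (7.25%) and 1 lower (5.73%), and in treated tumor 1 of 7, which was higher (0.38%), and 0 without the M-MDSC library 2.

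The second comparison asked how tumor and spleen differ. Of 7 tested receptors 5 differed in untreated PMN-MDSC (59.1% of all genes), 3 higher in tumor (29.4%) and 2 lower (29.7%). In treated PMN-MDSC 4 of 6 differed (53.6%), 3 higher (28.2%) and 1 lower (25.4%). In untreated M-MDSC 3 of 5 differed (28.4%), all higher in tumor (15.7%), and in treated M-MDSC 2 of 6 (5.87%), both higher (5.11%), and also 2 without the tumor library 2. In the subset comparisons in spleen and the compartment comparisons of PMN-MDSC most tested genes differed, so the receptors' counts there are read against a high background.

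The third comparison asked what poly(I:C)c changes. In splenic PMN-MDSC 4 of 7 tested receptors changed (11.6% of all genes), 1 rose (6.1%) and 3 fell (5.52%). In splenic M-MDSC 3 of 6 changed (19.6%), 1 rose (10.7%) and 2 fell (8.96%). In tumor PMN-MDSC 1 of 7 changed (3.36%), with 0 that rose (2.29%) and 1 that fell (1.07%), and in tumor M-MDSC 1 of 6 changed (2.88%), with 1 that rose (1.82%) and 0 that fell (1.06%), and 2 without the treated library 2.

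The study's own thresholds were stricter, an adjusted p under 0.001 with at least a 2-fold change. With treatment Ccr2 and Ccrl2 passed them in splenic M-MDSC (2.47% of all genes), and 0 receptors passed in splenic PMN-MDSC (0.0413%), tumor PMN-MDSC (0.241%) and tumor M-MDSC (0.012%), where the thresholds above had called 4, 1 and 1. Between compartments 3 receptors passed in untreated PMN-MDSC (21.7%), 3 in untreated M-MDSC (8.6%), 2 in treated PMN-MDSC (13%) and 0 in treated M-MDSC (0.188%). Between subsets 5 passed in untreated spleen (23.2%), 3 in treated spleen (21.2%), 2 in untreated tumor (1.65%) and 0 in treated tumor. For the differences between treatment effects described further on, 0 receptors passed these thresholds with edgeR in any of the 4 comparisons, where 3 or 4 receptors each had an unadjusted p under 0.05.

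Cxcr2, the receptor for neutrophil-attracting CXC chemokines, marked PMN-MDSC in every setting. In untreated spleen it read 986, 2111, 1156 and 1375 CPM in PMN-MDSC and 3.54, 1.22, 2.78 and 5.22 CPM in M-MDSC. In untreated tumor it read 84.4, 291, 220 and 282 CPM in PMN-MDSC and 3.94, 5.86, 3.29 and 0 CPM in M-MDSC. The lowest PMN-MDSC library thus lay well above the highest M-MDSC library in both compartments. The log2 difference was 8.63 ± 0.42 in spleen (adjusted p = 9.7e-07) and 6.00 ± 0.53 in tumor (adjusted p = 9.8e-05), and with treatment it was 7.26 ± 1.007 (adjusted p = 0.00058) and 7.01 ± 0.83 (adjusted p = 0.034). In treated tumor the gap lost its call without any of 5 of the 7 libraries (PMN-MDSC libraries 2 and 3 and each M-MDSC library), at adjusted p values up to 0.14, while the libraries did not overlap. Without the M-MDSC library 2 it was 6.42 (adjusted p = 0.0806).

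Tumor PMN-MDSC carried less Cxcr2 than splenic ones. The level was 6.04-fold lower in untreated tumor (log2 fold change -2.59 ± 0.40, adjusted p = 0.00033) and 4.37-fold lower in treated tumor (-2.13 ± 0.48, adjusted p = 0.0057), and libraries did not overlap in either. With poly(I:C)c Cxcr2 did not pass the test in either compartment. Treated splenic PMN-MDSC read 1075, 2267 and 2176 CPM (0.39 ± 0.34, adjusted p = 0.51) and treated tumor PMN-MDSC 193, 235, 536 and 660 CPM (0.82 ± 0.47, adjusted p = 0.40). The summed neutrophil markers followed the same order of groups in PMN-MDSC, with 4514 to 14336 CPM in treated tumor and 54775 to 112017 CPM in treated spleen, and their part in the Cxcr2 difference was not tested.

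Ccr1, a receptor for CCL3, CCL5 and related ligands, was higher in PMN-MDSC than in M-MDSC in spleen, and the subsets overlapped in untreated tumor. Untreated splenic PMN-MDSC read 382, 612, 619 and 604 CPM against 22.1, 45.5, 22.6 and 18.3 CPM in M-MDSC (log2 difference 4.31 ± 0.32, adjusted p = 5.4e-06). In untreated tumor the 2 subsets overlapped, with 226, 329, 296 and 305 CPM in PMN-MDSC and 314, 237, 292 and 146 CPM in M-MDSC (0.31 ± 0.20, adjusted p = 0.37). In treated tumor they did not overlap, with 264, 312, 598 and 642 CPM in PMN-MDSC and 221, 81.8 and 117 CPM in M-MDSC, and the difference of 1.75 ± 0.46 missed the threshold (adjusted p = 0.22) but passed with DESeq2 (0.00943), in a fit over all groups (0.00833) and without a filter on low counts (2.56e-07). Without the M-MDSC library 2 it was 1.47 (adjusted p = 0.281). Without treatment Ccr1 was 1.79-fold lower in tumor than in spleen in PMN-MDSC (-0.84 ± 0.21, adjusted p = 0.0057) and 9.51-fold higher in tumor in M-MDSC (3.25 ± 0.30, adjusted p = 1.1e-05). The PMN-MDSC difference missed the call in a fit over all groups (adjusted p = 0.0535). With treatment the PMN-MDSC libraries of both compartments overlapped (-0.61 ± 0.37, adjusted p = 0.195). The M-MDSC difference with treatment was 1.46 ± 0.41 and missed the threshold (adjusted p = 0.082), passed with DESeq2 (adjusted p = 0.0135), and was 1.73 (adjusted p = 0.0746) without the tumor library 2. Ccr1 did not pass the treatment test in any of the 4 populations, with log2 fold changes of 0.38 and 0.58 in splenic and tumor PMN-MDSC, 0.90 in splenic and -0.86 in tumor M-MDSC (adjusted p = 0.39, 0.33, 0.12 and 0.23), the last -0.58 (adjusted p = 0.395) without library 2. It did pass in splenic M-MDSC without the untreated library 2 (1.24, adjusted p = 0.0372), and in tumor M-MDSC without the treated library 1 (-1.35, adjusted p = 0.0483) or without a filter on low counts (adjusted p = 0.0181).

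Cxcr4, the receptor for CXCL12, was expressed in all 8 MDSC groups and was the receptor called with treatment in tumor M-MDSC. Untreated tumor M-MDSC read 71, 112, 102 and 84.4 CPM and treated ones 159, 252 and 269 CPM, without overlap. The rise was 2.37-fold (1.24 ± 0.24, adjusted p = 0.031), and without the treated library 2 it was 1.18 with an adjusted p of 0.039. It missed the threshold without any of the 4 untreated libraries or the treated library 3 (adjusted p = 0.060 to 0.13). In tumor PMN-MDSC the same treatment gave 230, 219, 429 and 227 CPM against 136, 291, 262 and 324 CPM (0.06 ± 0.30, adjusted p = 0.94), and the difference between the 2 treatment effects was 1.19 ± 0.42 (adjusted p = 0.51), or 1.12 (adjusted p = 0.836) without the treated M-MDSC library 2. Spleen showed 0.43 ± 0.28 in M-MDSC and -0.49 ± 0.36 in PMN-MDSC (adjusted p = 0.32 and 0.43). In tumor M-MDSC the macrophage marker sum was 5251, 28499 and 10978 CPM treated and 3574 to 8470 CPM untreated, which overlapped. The monocyte marker sum was 2638 to 5942 CPM treated and 9657 to 12593 CPM untreated. The part of either in the rise of Cxcr4 was not tested.

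Cxcr4 also separated the subsets and the compartments. It was 7.69-fold higher in PMN-MDSC than in M-MDSC in untreated spleen (2.94 ± 0.25, adjusted p = 1.2e-05) and 2.88-fold higher in untreated tumor (1.53 ± 0.25, adjusted p = 0.0018), and in treated tumor the subsets overlapped (0.34 ± 0.32, adjusted p = 0.64, and 0.41, adjusted p = 0.626, without the M-MDSC library 2). In M-MDSC it was 2.38-fold higher in tumor than in spleen without treatment (1.25 ± 0.18, adjusted p = 0.00022) and 4.17-fold higher with it (2.06 ± 0.34, adjusted p = 0.011), the latter lost without the treated splenic library 1 (adjusted p = 0.0516) and at 1.98 (adjusted p = 0.0364) without the tumor library 2. In PMN-MDSC tumor and spleen overlapped, with 182, 355, 310 and 425 CPM in untreated spleen (-0.23 ± 0.30, adjusted p = 0.54).

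Ccr2, the CCL2 receptor of classical monocytes, fell with poly(I:C)c in 3 of the 4 populations. In splenic M-MDSC it went from 1143, 1334, 1058 and 1053 CPM to 289, 160, 188 and 81 CPM, and the libraries did not overlap. The fall was 6.64-fold (-2.73 ± 0.32, adjusted p = 0.00057). In tumor PMN-MDSC it went from 428, 299, 328 and 317 CPM to 80.1, 79.4, 11.8 and 12.9 CPM, which was 7.72-fold lower (-2.95 ± 0.61, adjusted p = 0.037), and this call was lost without any of 6 of the 8 libraries (all 4 untreated ones and treated libraries 2 and 4, adjusted p up to 0.11). Without a filter on low counts it was also lost (adjusted p = 0.17). The monocyte marker sum of these libraries was 5157 to 8939 CPM untreated and 2659 to 3570 CPM treated. Single markers did not fall together. Of the 11 tested 2 rose (2.29% of all genes) and 1 fell (1.07%), with a median log2 fold change of 0.17 against 0.006 over all genes. The part of monocyte RNA in the fall of Ccr2 was not tested.

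In splenic PMN-MDSC Ccr2 stood at 235, 37.7, 70.3 and 54.2 CPM without treatment and at 2.48, 1.09 and 1.5 CPM with it, the latter from 2 or 3 counts per library. The pooled ratio was 73.4 (95% exact interval 37.1 to 170, counting error only), and the fitted log2 fold change was -5.92 ± 0.91 (adjusted p = 0.0067). Without the untreated library 1, the highest, the fall was -5.01 (adjusted p = 0.0028). In that library the summed macrophage markers (1924 CPM) and B cell markers (215 CPM) were also the highest of the group, and in the treated libraries the macrophage sum was 276, 162 and 114 CPM against 640 to 1924 CPM in untreated ones. The monocyte marker sum overlapped, at 2079 to 3823 CPM in treated and 2607 to 4200 CPM in untreated libraries. The part of macrophage RNA in the fall of Ccr2 was not tested.

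In tumor M-MDSC Ccr2 went from 1498, 1064, 1353 and 1280 CPM to 475, 33.2 and 52.2 CPM. All 3 treated libraries were below every untreated one, library 1 stood well above the others, and the change of -2.85 ± 0.87 missed the threshold (adjusted p = 0.11). It passed without the treated library 1 (-4.97, adjusted p = 0.0017), with DESeq2 (adjusted p = 0.030) and in a fit over all groups (adjusted p = 0.015), and without the divergent library 2 it was -2.35 (adjusted p = 0.13). The monocyte marker sum of these libraries was 5942, 2638 and 3904 CPM against 9657 to 12593 CPM untreated. Of the 11 monocyte markers tested 1 rose (1.82% of all genes) and 1 fell (1.06%), and their median log2 fold change was 0.69, against -0.0005 over all genes. The part of monocyte RNA in the Ccr2 values was not tested. The treatment effects on Ccr2 were not shown to differ between compartments (adjusted p = 0.22 for PMN-MDSC, 0.98 for M-MDSC) or between subsets in tumor (adjusted p = 0.99). Without library 2 the M-MDSC difference between compartments was 0.40 (adjusted p = 0.909), against -0.10 with it, and that between subsets 0.61 (adjusted p = 0.996), against 0.11. Without the treated tumor M-MDSC library 1 the effect in tumor minus that in spleen was -2.24 in M-MDSC (adjusted p = 0.0231). In spleen the effect in M-MDSC minus that in PMN-MDSC was 3.11 ± 0.96 (adjusted p = 0.0511), and it passed with RLE scaling (0.0413), upper-quartile scaling (0.0399) and DESeq2 (0.00458), and without any of the 4 untreated PMN-MDSC libraries or the treated M-MDSC library 4 (0.0299 to 0.0473).

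As a marker of the subset, Ccr2 was lower in PMN-MDSC than in M-MDSC by 11.7-fold in untreated spleen (-3.55 ± 0.54, adjusted p = 0.00037) and by 3.59-fold in untreated tumor (-1.84 ± 0.17, adjusted p = 3.45e-05). The tumor difference missed the call when all groups shared 1 estimate of the spread (adjusted p = 0.0715). The M-MDSC libraries of both compartments overlapped (0.22 ± 0.14, adjusted p = 0.27). PMN-MDSC carried 3.72-fold more Ccr2 in untreated tumor than in spleen (1.90 ± 0.48, adjusted p = 0.0064), a difference that moved to 2.79 without the untreated splenic library 1 and was not called without a filter on low counts (adjusted p = 0.0997). In treated PMN-MDSC the tumor level was 34.1 times the splenic one (interval 17.2 to 79.4, log2 4.87 ± 0.998, adjusted p = 0.0038).

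Cx3cr1, the fractalkine receptor, fell with treatment in both splenic populations. In splenic M-MDSC it read 191, 124, 134 and 259 CPM without and 37.2, 33.2, 29.3 and 4.37 CPM with poly(I:C)c, a 7-fold fall (-2.81 ± 0.50, adjusted p = 0.0054). In splenic PMN-MDSC it read 34.7, 20.7, 5.82 and 15.3 CPM without and 0, 1.09 and 1.5 CPM with it, from 5 counts in 3 libraries. The pooled ratio was 20.5 (interval 8.67 to 63.9, log2 -4.25 ± 0.86, adjusted p = 0.018), and the call was lost without the treated library 2 or 3 (adjusted p = 0.0562 and 0.0637). Without the untreated library 1 it fell below the filter and was not tested. The macrophage marker sums of splenic PMN-MDSC given above were also lower with treatment. Within the untreated libraries they followed the order of Cx3cr1 but not that of Ccr2. In splenic M-MDSC they were 737 to 985 CPM untreated and 368 to 714 CPM treated, and treated library 4 held the highest treated sum and the lowest Cx3cr1. There 3 of 8 tested macrophage markers rose (10.7% of all genes) and 2 fell (8.96%), with a median log2 fold change of 0.65 against -0.01 over all genes. The part of macrophage RNA in the Cx3cr1 values was not tested.

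In tumor Cx3cr1 did not pass the treatment test. Tumor PMN-MDSC read 197, 241, 209 and 218 CPM without and 192, 229, 171 and 37.3 CPM with treatment (-0.54 ± 0.41, adjusted p = 0.54). Treated tumor M-MDSC read 57.4, 481 and 66.5 CPM against 46.7, 109, 110 and 163 CPM, so that the log2 fold change was 0.86 ± 0.74 (adjusted p = 0.59) with library 2 and -0.81 (adjusted p = 0.36) without it. That library held the highest macrophage marker sum of all, and its Cx3cr1 level was the highest of all 34 libraries. The difference between the treatment effects in tumor and spleen was 3.72 ± 1.04 for PMN-MDSC against 3.71 ± 0.97 in M-MDSC, and neither passed over all genes (adjusted p = 0.0625 and 0.0985). Both passed with DESeq2 (adjusted p = 0.00607 and 0.0251), and the M-MDSC difference was 2.01 (adjusted p = 0.326) without library 2. The PMN-MDSC difference also passed without the untreated splenic library 3 (adjusted p = 0.0216) or the treated tumor library 4 (0.0112), and the M-MDSC one without the treated tumor library 1 (0.0322).

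Between compartments Cx3cr1 was called in PMN-MDSC. Untreated tumor PMN-MDSC carried 12-fold more than splenic ones (3.59 ± 0.41, adjusted p = 5.7e-05), and treated ones 171 times as much (interval 73.0 to 526, log2 7.32 ± 0.87, adjusted p = 0.00034). In M-MDSC tumor and spleen overlapped without treatment (-0.70 ± 0.36, adjusted p = 0.18), and with treatment the difference of 2.97 ± 0.89 missed the threshold (adjusted p = 0.0984), passed in a fit over all groups (adjusted p = 0.00262), and was 1.28 (adjusted p = 0.355) without the tumor library 2. In untreated spleen PMN-MDSC had 9.37-fold less Cx3cr1 than M-MDSC (-3.23 ± 0.46, adjusted p = 0.00024), whereas in untreated tumor they had 2.14-fold more (1.10 ± 0.30, adjusted p = 0.030). The tumor call was lost without any of 6 of the 8 libraries (all 4 PMN-MDSC libraries and M-MDSC libraries 2 and 3, adjusted p = 0.052 to 0.090) and in a fit over all groups (adjusted p = 0.27).

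Ccrl2, which binds chemerin and presents it to neighbouring cells, showed the largest tumor against spleen difference of the receptors in each of the 2 untreated populations. Untreated PMN-MDSC read 5.08, 13.4, 10.5 and 13.5 CPM in spleen and 531, 770, 804 and 744 CPM in tumor, a 73.4-fold difference (6.20 ± 0.33, adjusted p = 1.2e-06). Untreated M-MDSC read 2.65, 4.06, 1.74 and 4.82 CPM in spleen and 439, 444, 344 and 256 CPM in tumor, a 108-fold difference (6.76 ± 0.28, adjusted p = 2.3e-08). Every tumor library thus exceeded every splenic library in both subsets. With treatment the difference was 4.12 ± 0.52 for PMN-MDSC (adjusted p = 0.00043), and for M-MDSC it was 2.76 ± 0.40 (adjusted p = 0.0074), or 3.08 (adjusted p = 0.00277) without the tumor library 2. Tumor cells had passed through enzymatic and mechanical dissociation that splenic cells had not, so compartment and handling cannot be told apart for Ccrl2 or for any other gene of these comparisons.

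Ccrl2 rose with poly(I:C)c in spleen and was already high in tumor. Treated splenic M-MDSC read 36.8, 63.2, 54.1 and 26.6 CPM, which was 12.6-fold above the untreated libraries (3.66 ± 0.35, adjusted p = 0.00019). Treated splenic PMN-MDSC read 18.2, 55.5 and 50.6 CPM, 4-fold above the untreated ones (2.0 ± 0.44, adjusted p = 0.024), and this call was lost without the untreated library 3 or 4 or the treated library 2 or 3 (adjusted p = 0.058 to 0.099). Neither splenic population overlapped with its untreated counterpart. In tumor the treated levels were 394, 506, 750 and 1159 CPM in PMN-MDSC (-0.09 ± 0.31, adjusted p = 0.91) and 334, 163 and 413 CPM in M-MDSC (-0.33 ± 0.33, adjusted p = 0.64, and -0.02, adjusted p = 0.98, without library 2). The treatment effect in tumor M-MDSC was lower than that in splenic M-MDSC by 3.97 ± 0.52 on the log2 scale (adjusted p = 0.0025), where 1 of 6 tested receptors and 0.79% of all genes differed, and without the divergent library 2 it was lower by 3.66 (adjusted p = 0.0024). For PMN-MDSC the same difference was -2.07 ± 0.56 (adjusted p = 0.054), and it passed with DESeq2 (adjusted p = 0.0071), RLE scaling (0.0495) and upper-quartile scaling (0.0454), and without the treated splenic library 1 (0.0190) or the treated tumor library 4 (0.0151). Between the subsets Ccrl2 was 2.03-fold higher in PMN-MDSC in untreated tumor (1.02 ± 0.19, adjusted p = 0.0040), a call lost in a fit over all groups (adjusted p = 0.0738).

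**Figure D3:**
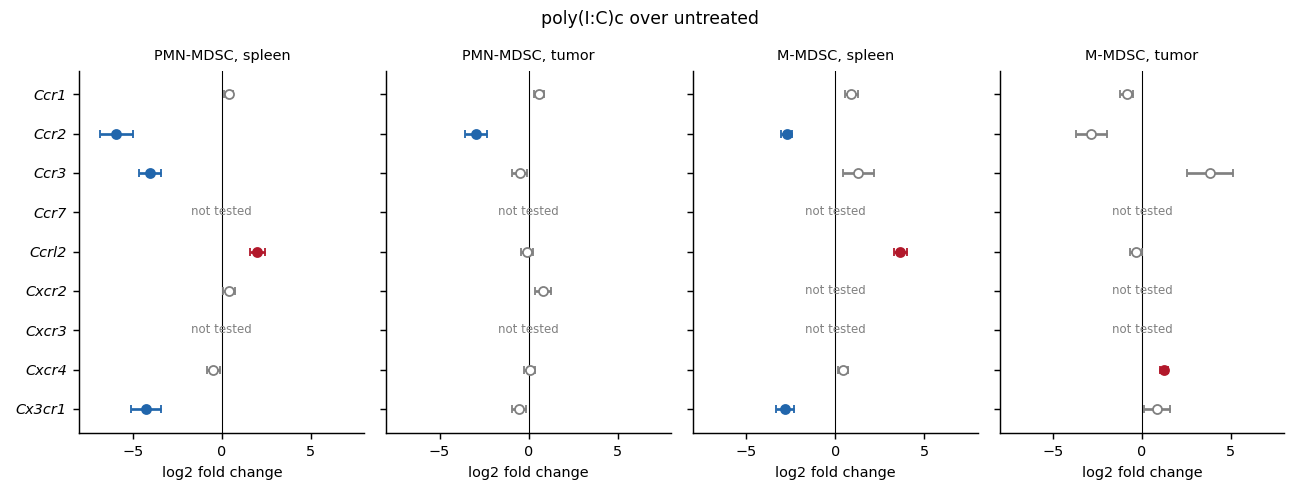
Log2 fold change of each receptor with poly(I:C)c against untreated in the 4 sorted populations, with error bars of 1 SE. Filled red and blue points passed an adjusted p of 0.05 (higher and lower), open points did not, and "not tested" marks receptors under an average of 25 counts. Ccr2 lies left of 0 in all 4 panels, and Ccrl2 lies right of 0 in both spleen panels and near 0 in both tumor panels.

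**Figure D4:**
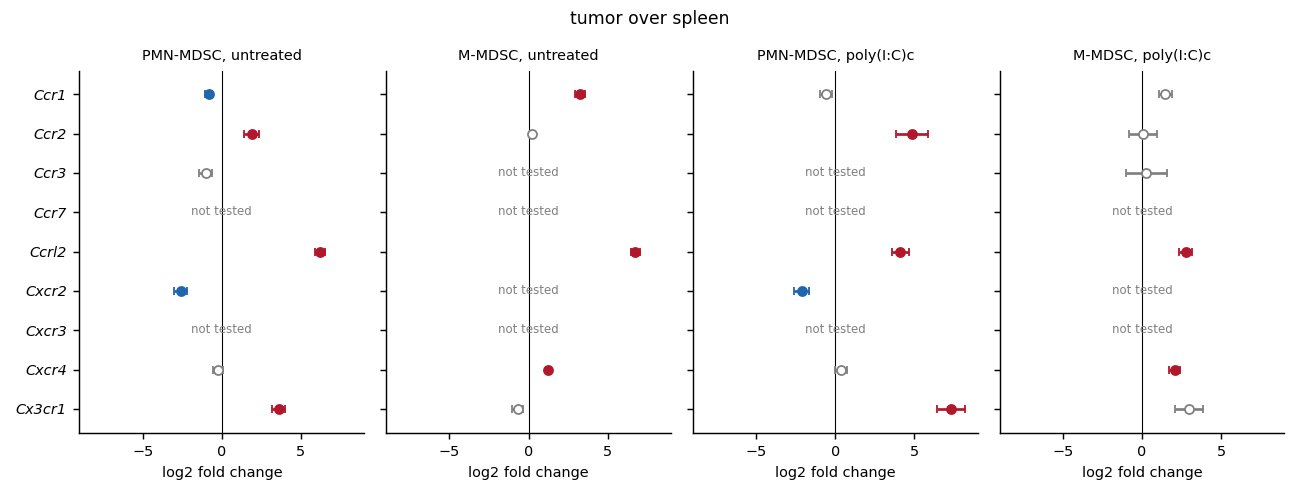
Log2 fold change of each receptor in tumor against spleen for both MDSC subsets without and with poly(I:C)c, with error bars of 1 SE and colors as called at an adjusted p of 0.05. Ccrl2 is higher in tumor in all 4 panels, Cxcr2 is lower in tumor in both PMN-MDSC panels, and Ccr1 is higher in tumor in untreated M-MDSC at a log2 fold change of 3.25.

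Ccr3, the eotaxin receptor known from eosinophils, was low and varied between libraries. In splenic PMN-MDSC it went from 71.2, 26.2, 23.7 and 38.5 CPM to 3.31, 3.26 and 1 CPM with treatment, without overlap. The fall was 16.1-fold (-4.01 ± 0.61, adjusted p = 0.0067) and stood at -3.56 (adjusted p = 0.0092) without the untreated library 1. Tumor PMN-MDSC read 11.3, 9.85, 28 and 24.9 CPM without and 10.2, 8.83, 12.2 and 24.9 CPM with treatment (-0.50 ± 0.41, adjusted p = 0.57). The treatment effects in tumor and spleen differed by 3.53 ± 0.76 (adjusted p = 0.020, 1 of 7 tested receptors and 3.5% of all genes), and this call was lost without the treated splenic library 3 (adjusted p = 0.083) and in a fit over all groups (adjusted p = 0.17).

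In M-MDSC single libraries carried most of the Ccr3 signal. Treated splenic M-MDSC read 28.5, 7.69, 4.4 and 74.6 CPM against 10.2, 23.2, 5.22 and 7.83 CPM untreated (1.30 ± 0.88, adjusted p = 0.35). Treated tumor M-MDSC read 6.93, 1.76 and 93.3 CPM against 1.13, 2.6, 3.84 and 0 CPM untreated (3.82 ± 1.29, adjusted p = 0.15), and the change passed without library 2 (4.38, adjusted p = 0.0481) and in a fit over all groups (adjusted p = 0.0255). Without library 3 Ccr3 fell below the filter and was not tested. The high treated tumor library, library 3, also held the highest Siglecf (56.7 CPM) and Il5ra (22.3 CPM) of its group, both known from eosinophils, while Epx, an eosinophil granule gene, was at 1.04 CPM there. The high treated splenic library, library 4, also held the group's highest Siglecf (23.4 CPM), the T and NK cell marker sum of 186 CPM against 9.38 to 15.4 CPM in the others, and the highest Gzma (99.6 CPM). The sum of 10 eosinophil, basophil and mast cell markers was 113, 21.4, 2.20 and 64.3 CPM in the treated splenic libraries, so it was highest in library 1. In treated tumor M-MDSC it was highest in library 3, at 92.6 CPM. The treatment effect in splenic M-MDSC exceeded that in splenic PMN-MDSC by 5.23 ± 1.29 (adjusted p = 0.020, 1 of 7 tested receptors and 10.9% of all genes). Without library 4 it was 4.11 (adjusted p = 0.029), and without the treated PMN-MDSC library 3 the call was lost (4.77, adjusted p = 0.064). For the difference of treatment effects between the subsets in tumor, 0 of 7 receptors passed edgeR's test (0.0239% of all genes), 3 had an unadjusted p under 0.05, and DESeq2 called 0.

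Between the subsets Ccr3 was 3.47-fold higher in PMN-MDSC in untreated spleen (1.79 ± 0.49, adjusted p = 0.0099, lost in a fit over all groups at 0.055). In untreated tumor the subsets did not overlap, with 9.85 to 28 CPM in PMN-MDSC and 0 to 3.84 CPM in M-MDSC, and Ccr3 was below the filter there (2.97 ± 0.45, adjusted p = 5.63e-09 without a filter). In treated spleen the order turned, with PMN-MDSC 11.7-fold lower (-3.54 ± 1.14, adjusted p = 0.027). That call was lost without any of the 3 PMN-MDSC libraries (adjusted p = 0.059 to 0.089) and without a filter on low counts (adjusted p = 0.13). Without the M-MDSC library 4, at 74.6 CPM, Ccr3 fell below the filter and was not tested. Between compartments Ccr3 in untreated PMN-MDSC differed by -1.01 ± 0.41 in tumor against spleen (adjusted p = 0.0526), and passed with DESeq2 (0.0359), without a filter (0.000259), without the splenic library 3 (0.0287) and without the tumor library 3 (0.0476). Without a filter it was higher in tumor in treated PMN-MDSC (2.47 ± 0.58, adjusted p = 0.000178) and lower in tumor in untreated M-MDSC (-2.20 ± 0.45, adjusted p = 2.24e-05). Siglecf in splenic PMN-MDSC lay at 33.6 to 94.9 CPM untreated and 6.51 to 21.5 CPM treated, and the untreated library with the highest Ccr3 held the lowest Siglecf. In tumor PMN-MDSC it lay at 72.5 to 191 CPM untreated and at 30.9 to 160 CPM treated. Of the 10 eosinophil, basophil and mast cell markers, 2 to 6 exceeded the floor in a library of each MDSC group. The basophil genes Mcpt8 and Fcer1a were at 0 in every MDSC library, which does not hold for the rest of that list. The part of other cell types in the Ccr3 values was not tested.

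**Figure D5:**
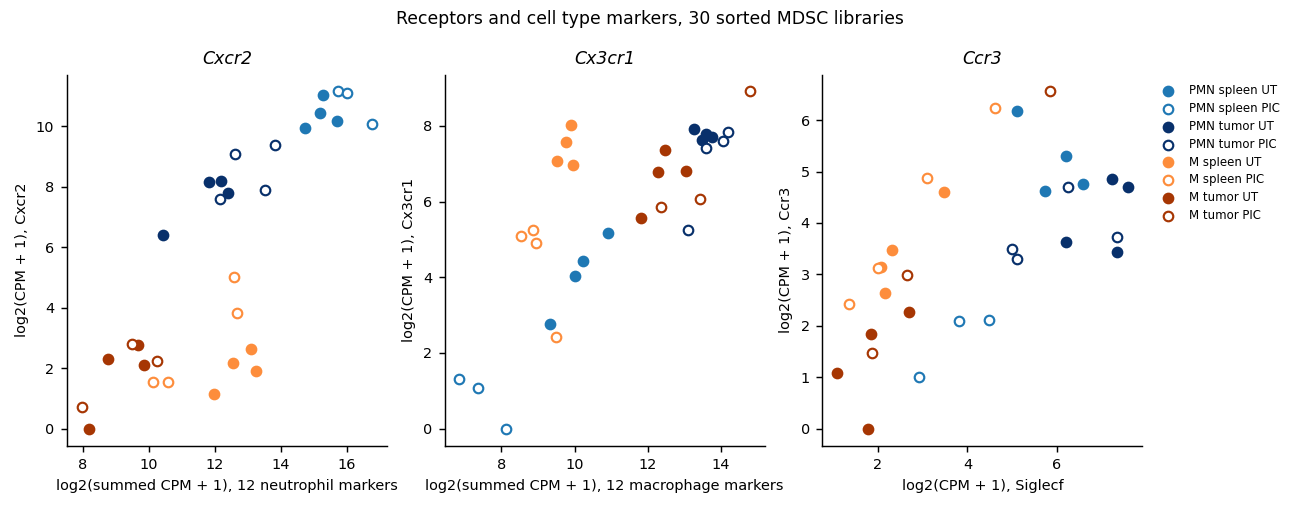
Receptors against cell type markers in the 30 sorted libraries, all axes log2(CPM + 1): Cxcr2 against the sum of 12 neutrophil markers, Cx3cr1 against the sum of 12 macrophage markers, and Ccr3 against Siglecf. Filled points are untreated and open points treated. Untreated splenic M-MDSC hold neutrophil marker sums like those of tumor PMN-MDSC at far lower Cxcr2, and 1 treated tumor M-MDSC library lies at the upper right of the Cx3cr1 panel with 481 CPM.

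Ccr7, the lymph node homing receptor of dendritic cells, stayed near the counting floor in most libraries. It was highest in treated splenic M-MDSC with 9.38, 23.9, 5.66 and 1.59 CPM, against 1.77, 0.406, 0 and 1.61 CPM untreated. Of the 4 treated libraries 3 lay above all untreated ones, and the change of 3.30 ± 1.05 in a fit without a filter on low counts missed the threshold (adjusted p = 0.15). In the same kind of fit the treatment effect on Ccr7 in spleen was higher in M-MDSC than in PMN-MDSC by 3.35 ± 0.96 (adjusted p = 0.0133). Within the treated splenic M-MDSC libraries the summed level of 12 dendritic cell markers followed the order of Ccr7, with 445, 758, 398 and 244 CPM. In the untreated ones it lay at 259 to 373 CPM and did not follow that order, and treated library 4 held a lower sum than every untreated library. Of that list 10 genes exceeded the floor in a treated library, Fscn1 read 46.6, 89.8, 37.4 and 6.35 CPM, Ccl22 stayed at or under 1.10 CPM, and Xcr1 and Cd209a were at 0. The part of dendritic cells in the Ccr7 values was not tested. Untreated tumor PMN-MDSC came next with 10.2, 4.67, 5.99 and 4.62 CPM of Ccr7, above the 0.565 to 2.33 CPM of splenic ones (2.09 ± 0.61, adjusted p = 0.0042 without a filter). Treated tumor PMN-MDSC read 0 to 2.55 CPM, below all untreated ones, at a log2 fold change of -1.90 ± 0.60 that missed the threshold (adjusted p = 0.0537). In the same fit treated splenic M-MDSC held more Ccr7 than treated splenic PMN-MDSC (log2 difference of PMN-MDSC against M-MDSC -2.91 ± 0.79, adjusted p = 0.0070) and than treated tumor M-MDSC (tumor against spleen -1.93 ± 0.50, adjusted p = 0.0029).

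Cxcr3, a receptor of activated T and NK cells that binds CXCL9 and CXCL10, was at or under 5.16 CPM in every library. Its group means ran from 0.317 CPM in bulk tumor to 2.56 CPM in untreated splenic PMN-MDSC, and all neighbours in that order overlapped. The highest library was treated splenic M-MDSC library 4, in which the T and NK cell marker sum of 186 CPM was also the highest of all. The next highest was library 2 of treated tumor M-MDSC with 4.18 CPM and a T and NK cell marker sum of 134 CPM. In a fit without a filter Cxcr3 was called once among the comparisons, higher in untreated splenic PMN-MDSC than in M-MDSC (2.50 ± 0.82, adjusted p = 0.011), at levels of 1.41 to 3.65 CPM against 0 to 0.813 CPM. A change with treatment was not detectable at this depth.

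Bulk tumor carried little RNA of these receptors beside the sorted cells. All 5 tested receptors were lower in bulk tumor than in untreated tumor M-MDSC (69.2% of all genes differed, 38.2% were higher and 31% lower, and 41.9% passed the strict thresholds), and all 6 tested were lower than in untreated tumor PMN-MDSC (69.5% differed, 36.1% were higher and 33.3% lower, and 40.1% passed the strict thresholds). Among the tested receptors Cx3cr1 was nearest to the sorted cells, at 16.2, 29.4, 25.9 and 29.7 CPM, 4.61-fold below M-MDSC (-2.20 ± 0.34, adjusted p = 0.00013) and 10.4-fold below PMN-MDSC (-3.38 ± 0.22, adjusted p = 9.5e-08). Ccr2 at 12.8, 30.6, 12.5 and 14.6 CPM was 81.6-fold below M-MDSC (-6.35 ± 0.36, adjusted p = 6.1e-08), and Ccr1 at 5.05 to 6.43 CPM was 46.9-fold below (-5.55 ± 0.28, adjusted p = 2.7e-08). The gap was widest for Ccrl2, which had 4 counts in 4 bulk libraries against 2924 in M-MDSC (ratio 2839, interval 1108 to 10428) and 6046 in PMN-MDSC (ratio 5459, interval 2131 to 20043). Ccr3 had 3 counts in bulk tumor. The bulk tissue was lysed directly while sorted cells had been dissociated, enriched and sorted, so cell content and handling cannot be told apart in these ratios.

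The other genes of the pathway were counted over lists of 15 further receptors, 24 ligands and 25 signalling genes. Of the 15 further receptors 2 were abundant enough to test, among them Cmklr1, the signalling chemerin receptor. Cmklr1 was higher in tumor than in spleen in untreated PMN-MDSC (2.72 ± 0.41, adjusted p = 0.00029) and untreated M-MDSC (1.11 ± 0.16, adjusted p = 0.00023). In splenic M-MDSC it rose with treatment by 0.96 ± 0.14 (adjusted p = 0.0015), opposite in direction to Ccr2 and Cx3cr1 in the same libraries.

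Of the ligands, 14 of 15 tested were higher in tumor than in spleen in untreated PMN-MDSC (29.4% of all genes, median log2 fold change 7.07 against 0.01 over all genes) and 12 of 12 in untreated M-MDSC (15.7% of all genes, 6.43 against 0.02). With poly(I:C)c Ccl5, a ligand of CCR1 and CCR3, rose in all 4 populations, by 2.59 ± 0.43 and 4.85 ± 0.37 in splenic and tumor PMN-MDSC (adjusted p = 0.0088 and 0.00014) and by 5.76 ± 0.42 and 5.59 ± 0.78 in splenic and tumor M-MDSC (adjusted p = 4.1e-05 and 0.013). Cxcl10, a CXCR3 ligand, rose in splenic PMN-MDSC (3.82 ± 0.54, adjusted p = 0.0050) and splenic M-MDSC (4.36 ± 0.48, adjusted p = 0.00048). Ccl24, a CCR3 ligand, fell in tumor PMN-MDSC (-3.08 ± 0.43, adjusted p = 0.0030) and tumor M-MDSC (-3.09 ± 0.54, adjusted p = 0.023). Across the ligands 2 of 5 tested rose in splenic PMN-MDSC (6.1% of all genes) and 0 fell (5.52%), and in tumor PMN-MDSC 1 of 15 rose (2.29%) and 2 fell (1.07%). In splenic M-MDSC 4 of 7 rose (10.7%) and 2 fell (8.96%), and in tumor M-MDSC 3 of 15 rose (1.82%) and 1 fell (1.06%).

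Signalling genes were mostly lower in tumor PMN-MDSC. In untreated PMN-MDSC 19 of 24 tested were lower in tumor (29.7% of all genes) and 1 was higher (29.4%), with a median of -1.17 against 0.01 over all genes. In untreated M-MDSC 4 of 24 were lower (12.7%) and 1 higher (15.7%), with a median of -0.23 against 0.02. The gene that was higher was Rgs1, which shortens Gi signals, with log2 fold changes of 6.15 ± 0.32 (PMN-MDSC, adjusted p = 1.2e-06) and 6.52 ± 0.53 (M-MDSC, adjusted p = 5.9e-06). Among those lower in PMN-MDSC were Rgs14 (-2.36 ± 0.26, adjusted p = 4.2e-05) and Grk6 (-1.69 ± 0.20, adjusted p = 6.6e-05), a kinase that shuts off chemokine receptors. With treatment Rgs1 rose in splenic M-MDSC (5.28 ± 0.50, adjusted p = 0.00019) and tumor M-MDSC (2.65 ± 0.50, adjusted p = 0.031), and Grk3, another such kinase, fell in splenic PMN-MDSC (-4.59 ± 0.79, adjusted p = 0.010). With treatment 0 of 23 signalling genes rose in splenic PMN-MDSC (6.1% of all genes) and 1 fell (5.52%). In tumor PMN-MDSC 0 of 24 rose (2.29%) and 1 fell (1.07%), in splenic M-MDSC 1 of 24 rose (10.7%) and 3 fell (8.96%), and in tumor M-MDSC 1 of 23 rose (1.82%) and 0 fell (1.06%).

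Across the 30 MDSC libraries the genes whose log2(CPM + 1) followed each receptor most closely differed from receptor to receptor. These correlations describe libraries that share groups, and 8533 genes were ranked. Cxcr2 ran closest with Il1f9 (Pearson r = 0.99), Myo1d (0.97) and Asprv1 (0.97), and Ccr1 with Abtb2 and Mxd1 (both 0.97). Ccr2 ran closest with Lsr (0.96), Crip1 and Ahnak (both 0.95), and Cx3cr1 with Nlrp1c-ps (0.96), Tmem176b (0.95) and Soga1 (0.94). Ccrl2 ran closest with Nfkbia, which encodes an NF-kB inhibitor, Gm20100 (both 0.96) and Il1a (0.95). Cxcr4 ran closest with Gcnt1, Mvb12b (both 0.93) and Selenon (0.90). Ccr3 had no such close companion, with Ikzf3 at 0.79, Bank1 at 0.66 and Zbtb16 at 0.66.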

How the data were processed

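The authors mapped reads with ContextMap and BWA to mm10 and deposited raw counts of fragments per gene (featureCounts, Subread 1.4.6-p3, by strand, Gencode v16), without normalization. The PCR-amplified libraries carried no molecular identifiers. GENCODE M21 (GRCm38) supplied symbols, positions and exon lengths by Ensembl identifier. Columns were assigned to groups by their names, and of 35 libraries 34 were used. No 2 libraries of a group were copies (48 pairs, chi-square per degree of freedom 6.88 to 55.8).

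Comparisons used R 4.3.3 with edgeR 4.0.16 (TMM, robust quasi-likelihood F-test, two-sided, genes averaging at least 25 counts, Benjamini-Hochberg over all tested genes, adjusted p under 0.05). The SE is the log2 fold change divided by the root of F. Alternatives were DESeq2 1.42.0, RLE and upper-quartile scaling, no filter, a fit over all groups, an adjusted p under 0.001 with at least a 2-fold change, and each library left out. Where a group held at most 3 counts per library, ratios of pooled counts carry exact binomial intervals. The code was tested on simulated data.

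The receptors and gene lists were chosen with earlier results of these data known. All 9 receptors are described. From each other pathway list at most the 3 called genes with the smallest adjusted p in a comparison are named, and for each receptor averaging at least 25 counts over the MDSC libraries the 3 most correlated genes. Some genes that this rule names are not reported here.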

Additional observations from a re-analysis of the deposited data

Results flagged for a closer look

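In 7 of 58 sets of 4 libraries, 1 library lay far from the other 3, where chance does so in about 1 of 20. These were Ccr1 in untreated splenic PMN-MDSC (382 CPM, low) and untreated splenic M-MDSC (45.5 CPM, high), and Ccr2 in untreated splenic PMN-MDSC (235 CPM, high) and bulk tumor (30.6 CPM, high). The others were Cxcr3 in treated splenic M-MDSC (5.16 CPM) and untreated tumor M-MDSC (1.37 CPM), and Cxcr4 in treated tumor PMN-MDSC (429 CPM), all high. The 2 Cxcr3 sets held at most 13 and 5 counts in a library.

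Treatment effects differed by an interaction term in 3 cases at an adjusted p under 0.05, and in 0 at an adjusted p under 0.001 with at least a 2-fold difference. For Ccr3 the effect in tumor minus that in spleen was 3.53 on the log2 scale in PMN-MDSC, and the effect in M-MDSC minus that in PMN-MDSC was 5.23 in spleen. For Ccrl2 the effect in tumor minus that in spleen was -3.97 in M-MDSC.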

How the results depend on the processing

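No paired analysis was possible because the columns carry running numbers and no replicate numbers, and libraries were not assigned to mice by their order. The running numbers do follow the order of the sample titles, so a pairing by order could have been inferred. A fit with such pairs was not run. How pairing would change the tests between compartments and between subsets was therefore not tested. In the following, numbers of receptors called are given in the order of the edgeR result and then the alternative, and the cause of a change was not tested. For poly(I:C)c against untreated, splenic PMN-MDSC went from 4 to 0 and tumor PMN-MDSC from 1 to 0 under the strict thresholds, tumor PMN-MDSC from 1 to 0 without a filter, and tumor M-MDSC from 1 to 0 under the strict thresholds, 2 without a filter, 2 with DESeq2 and 3 in the fit over all groups. For tumor against spleen, strict thresholds gave 3 for 5 in untreated PMN-MDSC, 2 for 4 in treated PMN-MDSC and 0 for 2 in treated M-MDSC, where no filter and the fit over all groups each gave 4. Between subsets, untreated tumor went from 5 to 2 under strict thresholds and to 2 in the fit over all groups, treated spleen from 6 to 3 under strict thresholds, and treated tumor from 1 to 0 under strict thresholds, 3 without a filter, 2 with DESeq2 and 2 over all groups. Bulk tumor against M-MDSC went from 5 to 8 without a filter. The interactions of tumor minus spleen went from 1 to 2 (no filter, RLE and upper-quartile scaling) or 3 (DESeq2) in PMN-MDSC, and from 1 to 4 (no filter), 3 (DESeq2) or 2 (all groups) in M-MDSC. Those of M-MDSC minus PMN-MDSC went from 1 to 5 (no filter) or 2 (DESeq2, RLE and upper-quartile scaling) in spleen and from 0 to 2 (no filter) in tumor. The filter-free counts include receptors that the filter removes.

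Leaving out 1 library gave 2 to 4, 0 to 1, 3 to 4 and 0 to 3 receptors called for treatment in splenic PMN-MDSC, tumor PMN-MDSC, splenic M-MDSC and tumor M-MDSC. It gave 5 to 6 and 3 for tumor against spleen in untreated PMN-MDSC and M-MDSC, 4 to 5 and 1 to 2 in treated ones, and 6, 4 to 6, 5 to 6 and 0 to 1 between subsets in untreated spleen, untreated tumor, treated spleen and treated tumor. It gave 5 and 6 for bulk tumor against M-MDSC and PMN-MDSC, and 0 to 3, 1 to 4, 0 to 2 and 0 for the interactions in PMN-MDSC, M-MDSC, spleen and tumor.

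Of single receptors, 28 leave-one-out log2 values turned sign, each for a difference that was not called. For Ccr2 they ran from -2.46 to 0.18 (subsets, treated tumor), -2.02 to 0.61 and -2.24 to 0.40 (interactions in tumor and M-MDSC) and -2.04 to 0.58 (compartments, treated M-MDSC), for Ccr3 from -1.83 to 1.81 (subsets, treated tumor), -0.55 to 3.62 (interaction in M-MDSC) and -2.78 to 1.38 (compartments, treated M-MDSC), and for Ccrl2 from -0.39 to 0.22 (subsets, treated spleen), -0.44 to 0.11 (treatment, tumor PMN-MDSC) and -0.54 to 0.088 (interaction in tumor). For Cx3cr1 they ran from -0.73 to 1.38 (subsets, treated tumor), -0.81 to 1.29 (treatment, tumor M-MDSC) and -0.28 to 1.82 (interaction in tumor), and for Cxcr4 from -0.25 to 0.19 (treatment, tumor PMN-MDSC) and -0.41 to 0.0057 (compartments, untreated PMN-MDSC). No other alternative turned a sign. Among the 3 scalings of the filtered genes, the median log2 value over all genes lay farthest from 0 at -0.44 (upper-quartile, subsets in treated spleen), and without a filter it reached -0.54 for treatment in splenic PMN-MDSC and 1.10 for bulk tumor against M-MDSC. With CPM of the library total, mean Ccr2 and Cxcr4 in untreated splenic M-MDSC were 1348 and 47.0 CPM and Ccr7 in treated splenic PMN-MDSC 1.04 CPM. Depth limits Ccr7 and Cxcr3, which lay near 3 counts in many libraries.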
